A study of Homo sapiens with 32 samples.

Results

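The genes described here are the intergenic long noncoding RNAs with a LINC symbol, measured by RNA sequencing in HEK293T cells, a human embryonic kidney line. They were chosen by name and level alone: the symbol had to be LINC followed by digits, and the mean over the 32 libraries had to reach 20 reads. This gave 118 gene IDs with 117 symbols (LINC01605 has 2 IDs), out of 60662 gene IDs in all. The count tables held 2266 LINC gene IDs, of which 1208 had at least 1 read. Just inside the limit were LINC01409, LINC00652 and LINC02606, with means of 20.9, 20.8 and 20.7 reads, and just outside it were LINC01424, LINC00562 and LINC00115, with 19.9, 19.8 and 19.2 reads. All 118 passed the filter on low counts in every comparison below.

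The libraries were handled as 3 experiments, a grouping by treatment and time that the sample titles do not name. In what is called here the knockdown experiment, cells were transfected with 20 nM YTHDF2 siRNA (KD) or were labelled WT. They received 20 µM STM2457, an inhibitor of the m6A writer METTL3, or the 0.2% DMSO vehicle, for 6 h (3 libraries in each of the 4 groups). KD cells were harvested at the end of these 6 h, 48 h after transfection. The emetine experiment crossed STM2457 or DMSO for 6 h with emetine, which blocks translation elongation, at 1.8 µM for the last 2 h. The groups without emetine were given DMSO for 2 h in its place (3 libraries in each of the 4 groups). The 9 h experiment set STM2457 against DMSO for 9 h (4 libraries each). All groups are 1 cell line, and the STM2457 libraries carry the DMSO vehicle too. The labels do not say whether the WT libraries received a control siRNA, so an effect of transfection and an effect of YTHDF2 siRNA cannot be told apart, and since separate cultures are not stated for the replicates, p-values measure only the spread between libraries.

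LINC genes are transcribed by RNA polymerase II from stretches between protein coding genes, and most are spliced, capped and polyadenylated like mRNAs. In human cells they are known for low levels, for retention of many of their products in the nucleus and for decay by the nuclear exosome, while those that reach the cytoplasm can be bound by ribosomes and degraded there. METTL3 places N6-methyladenosine (m6A) on adenosines within a short consensus of which GGACT (with U for T in the RNA) is the best known form, mostly in long exons. YTHDF2 is a cytoplasmic reader of m6A that recruits the deadenylation machinery to its targets.

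GENCODE release 29, which uses the same GRCh38 assembly as the submitters' processing notes, held 116 of the 118 gene IDs, 29 of them under another name. It classed 84 as lincRNA and 16 as processed transcripts. LINC02693, the most abundant, was classed there as the protein coding gene C17orf51. Exons of 42 members overlapped exons of another gene, and 12 overlapped those of a protein coding gene, among them LINC01089 with RHOF, LINC01619 with BTG1, LINC01232 with TM9SF2 and LINC00294 with CSTF3. Whether the counting used the strand is not stated, and reads of such pairs cannot be told apart. No coding gene's span was touched by 98 members.

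GGACT was searched on the RNA strand of the longest GENCODE 29 transcript of each member. It was present in 92 of 116 members (79.3%), with a median of 2 copies, and in 89.1% of the longest transcripts of all genes tested, a match being a description of letters and not a methylated site. The first GGACT with 20 bases of the same exon on each side is shown for 7 members that fell with STM2457, and for 2 that rose, with GGACT in capitals (GENCODE 29 transcripts, GRCh38, written 5′ to 3′ as DNA).
LINC00205, exon 3 of 3, chr21:45292071-45292115, plus strand: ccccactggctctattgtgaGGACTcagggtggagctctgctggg
LINC00680, exon 1 of 2, chr6:57949695-57949739, minus strand: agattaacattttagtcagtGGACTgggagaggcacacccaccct
LINC00938, exon 1 of 1, chr12:45727237-45727281, minus strand: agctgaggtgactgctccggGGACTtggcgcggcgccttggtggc
LINC01694, exon 2 of 2, chr21:45598628-45598672, plus strand: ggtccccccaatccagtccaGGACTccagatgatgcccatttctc
LINC00648, exon 3 of 3, chr14:47766551-47766595, minus strand: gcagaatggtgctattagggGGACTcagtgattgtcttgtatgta
LINC02593, exon 1 of 1, chr1:918958-919002, minus strand: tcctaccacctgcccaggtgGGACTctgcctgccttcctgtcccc
LINC01003, exon 1 of 1, chr7:152464362-152464406, plus strand: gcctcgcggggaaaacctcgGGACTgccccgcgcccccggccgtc
LINC01569, exon 3 of 3, chr16:4244330-4244374, minus strand: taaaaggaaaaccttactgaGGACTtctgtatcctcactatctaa
LINC01123, exon 4 of 4, chr2:109994760-109994804, plus strand: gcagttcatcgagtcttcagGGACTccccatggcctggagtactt

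Whole transcripts differed widely in copies of the motif. LINC00205 (7540 bases) held 10, LINC00938 (9730 bases, a single exon) and LINC00648 (2885 bases) held 7 each, LINC00680 held 5, LINC01003 held 4, LINC02593 and LINC01569 held 3 each, LINC01123 held 2 and LINC01694 (6721 bases) held 1. LINC01976, a 434-base transcript that rose with STM2457, held none. LINC01521 and LINC02893, which fell with STM2457, also held none, while LINC02986 and LINC02976, which rose, held 2 and 3.

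Depth was 37694945 to 42303951 gene reads per library in the knockdown experiment, 22510323 to 34677704 in the 9 h experiment and 21781514 to 28053353 in the emetine experiment. YTHDF2 was at 43.2 ± 1.14 CPM (counts scaled to library size) in KD and 178.2 ± 3.90 in WT libraries with DMSO, and at 76.9 ± 3.28 in KD and 618.0 ± 36.7 in WT libraries with STM2457 (SD, n = 3 each). Of 12 markers of other cell types, COL1A1 was detected at 14.3 to 25.2 CPM in every library and the other 11 stayed at or below 0.592 CPM. STM2457 replicate 3 of the knockdown experiment had 7.59% of its gene reads in ribosomal protein genes, against 6.4% and 6.5% in the other replicates of that group.

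LINC genes were low. Their mean CPM over all libraries ran from 0.673 to 128.1 with a median of 2.33, and in the knockdown experiment their median was 2.05 CPM against 17.5 CPM for all genes tested. The 8 most abundant were LINC02693 (128.1 CPM), LINC02381 (36.6), LINC02210 (33.8), LINC00641 (31.8), LINC00205 (29.3), LINC01128 (19.1), LINC01547 (13.99) and LINC01234 (13.7). LINC02381, from the HOXC region and within the span of SMUG1, stood highest per length, at 15.8 CPM per kb of exon, while LINC02693 was at 8.66 CPM per kb. LINC02210 shares exons with the readthrough gene LINC02210-CRHR1, so its level may include reads of that gene.

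Summed over the 118 members, CPM with TMM scaling was lower with STM2457 in each of the 5 settings. The sum was 526.1 ± 12.8 with STM2457 and 623.9 ± 9.56 with DMSO at 6 h in the knockdown experiment (SD, n = 3 each), and 557.0 ± 10.1 with STM2457 and 674.5 ± 6.63 with DMSO at 6 h in the emetine experiment without emetine (SD, n = 3 each). At 9 h it was 729.7 ± 19.7 with STM2457 and 770.3 ± 16.8 with DMSO (SD, n = 4 each). In KD cells it was 512.9 ± 7.93 with STM2457 and 608.7 ± 8.06 with DMSO, and under emetine it was 605.9 ± 10.47 with STM2457 and 739.5 ± 6.51 with DMSO (SD, n = 3 each). The STM2457 and DMSO libraries did not overlap in any setting, but at 9 h the highest STM2457 sum, 754.8, lay just under the lowest DMSO sum, 755.5. Sums were not made with other scalings, and ribosomal protein scaling moved the median log2 change of all genes at 9 h to 0.17. The direction of the sum at 9 h may therefore depend on the scaling. LINC02693 alone made up 15.9% to 26.1% of this sum. At 9 h it was at 128.0 CPM with STM2457 and 126.2 CPM with DMSO. LINC00205 was at 40.6 CPM with STM2457 and 62.0 CPM with DMSO at 9 h, and LINC00641 at 33.3 and 53.5 CPM. Of the members, 62 had a positive and 56 a negative log2 change at 9 h, so the lower sum there was not a fall of most members. In bulk RNA, fewer cells that express a gene and less of its RNA per cell cannot be told apart.

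STM2457 at 6 h lowered more LINC genes than it raised. In the knockdown experiment 37 members were lower (31.4%) and 13 higher (11%) at an edgeR adjusted p below 0.05, against 22.1% lower and 22.9% higher among the 16662 genes tested. The median log2 change was -0.19 for the members and -0.02 for all genes tested. The emetine experiment without emetine was a separate set of libraries with STM2457 or DMSO for 6 h and DMSO in place of emetine. It had 37 members lower (31.4%) and 8 higher (6.78%), against 21.9% lower and 26% higher of 15817 genes. The medians there were -0.09 for the members and 0.00 for all genes. A member was called in both experiments 36 times, and each of these 36 moved the same way, 29 lower (29 of the 37 lower calls in each) and 7 higher (7 of 13 and 7 of 8). The agreement between these experiments over all genes tested was not counted.

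The counts of rises are the less firm. Without STM2457 replicate 3 the higher members numbered 7 in the knockdown experiment, and without DMSO replicate 1 they numbered 5 in the emetine experiment. With libraries scaled to ribosomal protein genes, which moved the median of all genes to -0.28 in the knockdown experiment and -0.16 in the emetine experiment, the split became 63 lower and 2 higher in the first and 41 lower and 5 higher in the second. Scaled to the ERCC spike-in RNAs added to these libraries, it became 49 lower and 1 higher, and 40 lower and 5 higher, with medians of all genes at -0.39 and -0.13. Of all genes tested, ribosomal protein scaling gave 7289 lower and 1253 higher in the first experiment, and 6622 lower and 2208 higher in the second. With ERCC scaling these were 5023 lower and 398 higher, and 4679 lower and 2092 higher.

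**Figure D1:**
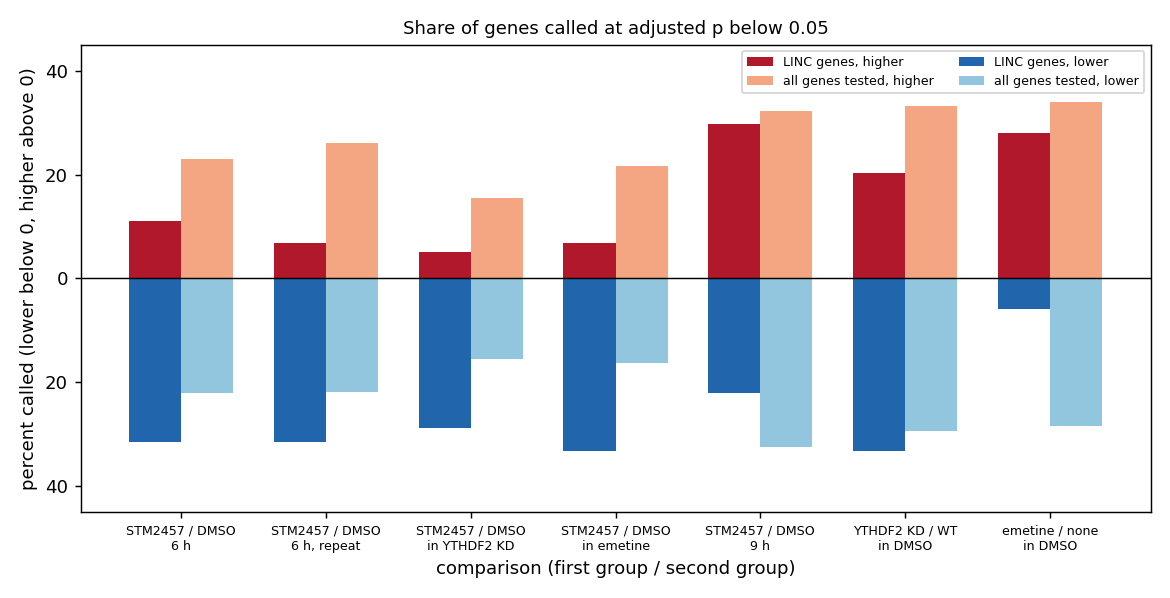
Percent of LINC genes (dark, left bar of each pair) and of all genes tested (light, right bar) called higher (above 0) or lower (below 0) at an edgeR adjusted p below 0.05, in 7 comparisons; "repeat" is the emetine experiment without emetine. At 6 h the dark bars reach 28.8% to 33.1% below 0 and 5.08% to 11% above it in the 4 STM2457 comparisons.

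LINC00205 fell the furthest at 6 h in the knockdown experiment. It lies on chromosome 21 (chr21:45288050-45297806), 152 bases from the coding gene POFUT2, and was at 10.3, 10.3 and 8.97 CPM with STM2457, against 31.6, 32.4 and 32.9 CPM with DMSO, in the knockdown experiment. In the emetine experiment without emetine it was at 9.35, 12.1 and 11.1 CPM with STM2457, against 37.8, 41.2 and 37.2 CPM with DMSO. Every STM2457 library lay below every DMSO library of its experiment, and the log2 changes were -1.71 ± 0.08 and -1.83 ± 0.07 (SE, edgeR adjusted p = 6.23e-12 and 7.47e-21).

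LINC00680 and LINC00938 had the same shape. LINC00680 (chr6:57946074-57961501, exons shared with unnamed genes on either strand) was at 2.79, 2.65 and 2.54 CPM with STM2457, against 7.42, 8.03 and 8.06 CPM with DMSO, a log2 change of -1.56 ± 0.10 (SE, edgeR adjusted p = 4.22e-10). LINC00938 (chr12:45718046-45727775), a single long exon 1890 bases from ARID2, was at 2.41, 3.01 and 3.20 CPM with STM2457, against 6.44, 5.71 and 7.61 CPM with DMSO, a log2 change of -1.20 ± 0.12 (SE, edgeR adjusted p = 2.39e-07). The groups did not overlap for either gene, and in the emetine experiment without emetine the log2 changes were -1.55 and -1.36. LINC01694 (chr21:45593654-45603056), also from the end of chromosome 21, was at 4.72, 6.05 and 4.82 CPM with STM2457, against 11.4, 12.6 and 12.2 CPM with DMSO, a log2 change of -1.21 ± 0.09 (SE, edgeR adjusted p = 4.91e-09).

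LINC00648 fell by nearly as much from a lower level. It lies 90000 bases from its nearest coding gene, MDGA2, and was at 0.41, 0.438 and 0.717 CPM with STM2457, against 1.94, 1.53 and 1.53 CPM with DMSO, a log2 change of -1.67 ± 0.23 (SE, edgeR adjusted p = 1.21e-05). Its fall was the largest among members in the emetine experiment without emetine, at -2.44 ± 0.31. The other large falls of the knockdown experiment were those of LINC00847 (-1.29), LINC00857 (-1.25), LINC03072 (-1.25) and LINC02846 (-1.24), with adjusted p of at most 0.000389. In the emetine experiment LINC01560 (-2.21), LINC02846 (-2.05), LINC03072 (-1.78) and LINC01521 (-1.61) were among the 8 largest falls. LINC01560 starts 625 bases from ZNF41 and LINC01521 lies 545 bases from PATZ1, so that both neighbour a coding gene closely.

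Of the 8 most abundant members, LINC00205 had the largest change, and those of LINC02693, LINC02210, LINC01128, LINC01547 and LINC02381 were smaller. LINC02693 was at 90.6, 95.7 and 92.6 CPM with STM2457, against 114, 114 and 108 CPM with DMSO, without overlap, a log2 change of -0.27 ± 0.05 (SE, edgeR adjusted p = 0.00017). LINC02210, LINC01128 and LINC01547 had log2 changes of -0.19, -0.32 and -0.63 and were called lower, while LINC02381 was at 40.3 ± 0.976 CPM with STM2457 and 40.6 ± 1.28 CPM with DMSO (SD, n = 3 each; edgeR adjusted p = 0.85).

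LINC02986, a single-exon transcript 15035 bases from ZBTB10 that GENCODE 29 calls AC009812.4, rose the furthest. It was at 1.000, 1.21 and 0.922 CPM with STM2457, against 0.199, 0.564 and 0.263 CPM with DMSO, a log2 change of 1.59 ± 0.29 (SE, edgeR adjusted p = 0.000218). In the emetine experiment without emetine it was at 1.30, 0.975 and 0.875 CPM with STM2457, against 0.542, 0.448 and 0.203 CPM with DMSO, a log2 change of 1.36 ± 0.36 (SE, edgeR adjusted p = 0.0023). The groups were apart in both experiments, and all of these values lay below the members' median of 2.33 CPM. LINC01123, which shares exon sequence with the pseudogene ZBTB45P1 on the other strand, was at 3.87, 3.01 and 2.97 CPM with STM2457, against 1.69, 2.04 and 2.01 CPM with DMSO, a log2 change of 0.78 ± 0.13 (SE, edgeR adjusted p = 0.000102).

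Smaller rises in the knockdown experiment were those of LINC01569 (0.53), LINC01315 (0.51), LINC03057 (0.49), LINC02980 (0.47), LINC01976 (0.45) and LINC00888 (0.35), with adjusted p of at most 0.0127. LINC01569 missed the threshold without DMSO replicate 1 (log2 change 0.43, edgeR adjusted p = 0.0585) or without STM2457 replicate 3 (0.37, 0.0782), as did LINC01315 without DMSO replicate 2 (0.32, 0.0836) and LINC02980 without STM2457 replicate 3 (0.32, 0.0868). In the emetine experiment LINC01976 (0.73), LINC01123 (0.94), LINC02976 (0.72), LINC01569 (0.64), LINC01012 (0.39), LINC00888 (0.37) and LINC01234 (0.18) made up the rest of the 8 rises. LINC02976 (0.56, edgeR adjusted p = 0.0627) and LINC01569 (0.47, 0.0613) missed the threshold there without DMSO replicate 1. LINC01012 missed it without DMSO replicate 2 (0.20, 0.341) or STM2457 replicate 1 (0.20, 0.389), and LINC01234 without any of 4 of the 6 libraries (adjusted p = 0.0652 to 0.338).

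**Figure D2:**
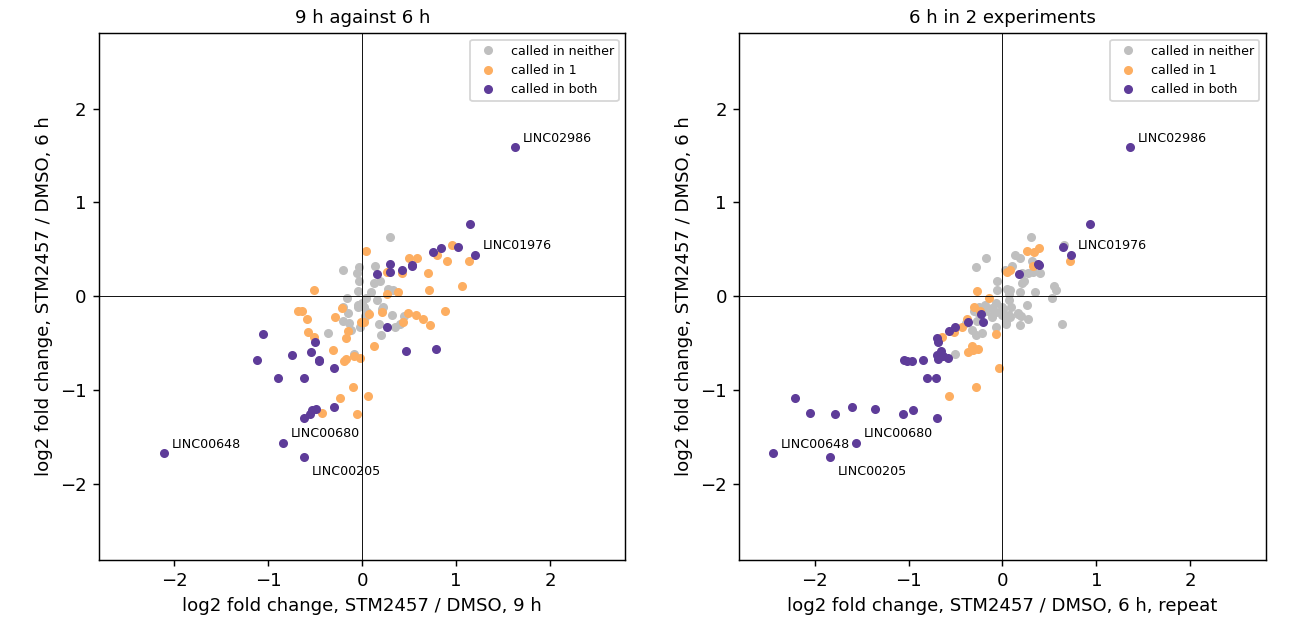
Log2 change of each LINC gene with STM2457 at 6 h in the knockdown experiment (vertical) against 9 h (left) and against 6 h in the emetine experiment without emetine (right); colours mark genes called in neither, 1 or both. The 36 genes called in both 6 h experiments all have the same sign on both axes, and 30 of the 33 called at both 6 h and 9 h do.

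At 9 h, with TMM scaling, the share of members that rose was near that of all genes tested, and the share that fell was smaller. The summed CPM was lower at 9 h all the same, as given above. The 9 h experiment had 35 members higher (29.7%) and 26 lower (22.0%), against 32.2% higher and 32.5% lower among 15834 genes tested, and the median log2 change was 0.03 for the members and 0.00 for all genes. Of the 33 members called at both times, 30 moved the same way, made up of 18 lower (18 of the 37 lower at 6 h and of the 26 at 9 h) and 12 higher (12 of 13 and of 35). The agreement over all genes tested was not counted here either. The 6 h and 9 h groups were fitted apart, as different experiments, and their difference was not tested. With ribosomal protein scaling the 9 h split was 48 higher and 19 lower, where 7572 of the 15834 genes tested were higher and 2381 lower.

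LINC00648 fell further than any other member at 9 h, to 0.567, 0.634, 0.565 and 0.387 CPM with STM2457, against 2.21, 2.74, 2.29 and 2.25 CPM with DMSO, a log2 change of -2.11 ± 0.18 (SE, edgeR adjusted p = 2.23e-10). LINC00205 was at 47.8, 38.3, 38.4 and 37.9 CPM with STM2457, against 63.4, 62.6, 59.5 and 62.6 CPM with DMSO, a log2 change of -0.62 ± 0.05 (SE, edgeR adjusted p = 2.2e-10). Neither gene's groups overlapped. The other large falls were those of LINC02893 (-1.12), LINC01963 (-1.06), LINC01003 (-0.89), LINC00680 (-0.84), LINC00963 (-0.75), LINC00641 (-0.68) and LINC03060 (-0.64), with adjusted p of at most 0.000105.

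The largest rises at 9 h were again led by LINC02986, at 3.27, 2.82, 2.44 and 4.69 CPM with STM2457, against 0.738, 0.985, 1.01 and 1.44 CPM with DMSO, a log2 change of 1.63 ± 0.20 (SE, edgeR adjusted p = 1.01e-07). LINC01976 (chr17:43938363-43938959), 1845 bases from PPY, was at 4.71, 4.21, 3.85 and 5.25 CPM with STM2457, against 1.96, 2.19, 1.43 and 2.12 CPM with DMSO, a log2 change of 1.20 ± 0.13 (SE, edgeR adjusted p = 2.11e-08). LINC01123 (1.15), LINC01176 (1.14), LINC01140 (1.06), LINC01569 (1.02), LINC01410 (0.95) and LINC02976 (0.90) followed. LINC01176 and LINC01140 each share exons with a coding gene that has no symbol.

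LINC01128, LINC00242 and LINC00638 were called in opposite directions at 6 h in the knockdown experiment and at 9 h, and were picked out after their values were seen. LINC01128, which overlaps LINC00115 on the other strand, was at 14.1, 15.4 and 14.2 CPM with STM2457, against 18.5, 18.8 and 17.4 CPM with DMSO, at 6 h. At 9 h it was at 25.5, 24.7, 22.6 and 28.2 CPM with STM2457, against 20.7, 19.9, 20.7 and 22.6 CPM with DMSO. Its log2 changes were -0.32 ± 0.07 and 0.26 ± 0.06 (SE), those of LINC00242 were -0.56 and 0.78, and those of LINC00638 were -0.58 and 0.47.

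Taking all 5 STM2457 comparisons, which share no library, 14 members were called lower in each: LINC00648, LINC00205, LINC00680, LINC03072, LINC00847, LINC00938, LINC01694, LINC01521, LINC02893, LINC01003, LINC01232, LINC00630, LINC02593 and LINC00963. LINC01976 and LINC01569 were called higher in each. How many of all genes tested were called alike in all 5 was not counted. In the 3 comparisons without YTHDF2 siRNA or emetine, LINC00674 joined the lower members (15 in all) and LINC02986, LINC01123, LINC01012, LINC00888 and LINC01234 joined the higher (7 in all). Of the 14 lower members, 11 stayed called in all 5 with ribosomal protein scaling or with DESeq2, 13 without the filter on low counts (LINC00847 was lost), and all 14 with ERCC scaling in the 4 comparisons it could be fitted to. Among them, the calls lost with 1 library left out were those of LINC00847, LINC01232 and LINC01521, at 9 h for all and also in the emetine experiment without emetine for LINC00847 (highest adjusted p, 0.132, 0.116 and 0.087 at 9 h, and 0.0929 for LINC00847 without DMSO replicate 3 of the emetine experiment). These 3 genes were also the ones that missed the threshold with ribosomal protein scaling and with DESeq2. Of the 2 higher members, LINC01569 lost a call with DESeq2 and with 1 library left out in 3 comparisons (adjusted p up to 0.165, under emetine without DMSO replicate 2). Under both scalings LINC01976 and LINC01569 kept a positive change and were no longer called in every comparison.

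**Figure D3:**
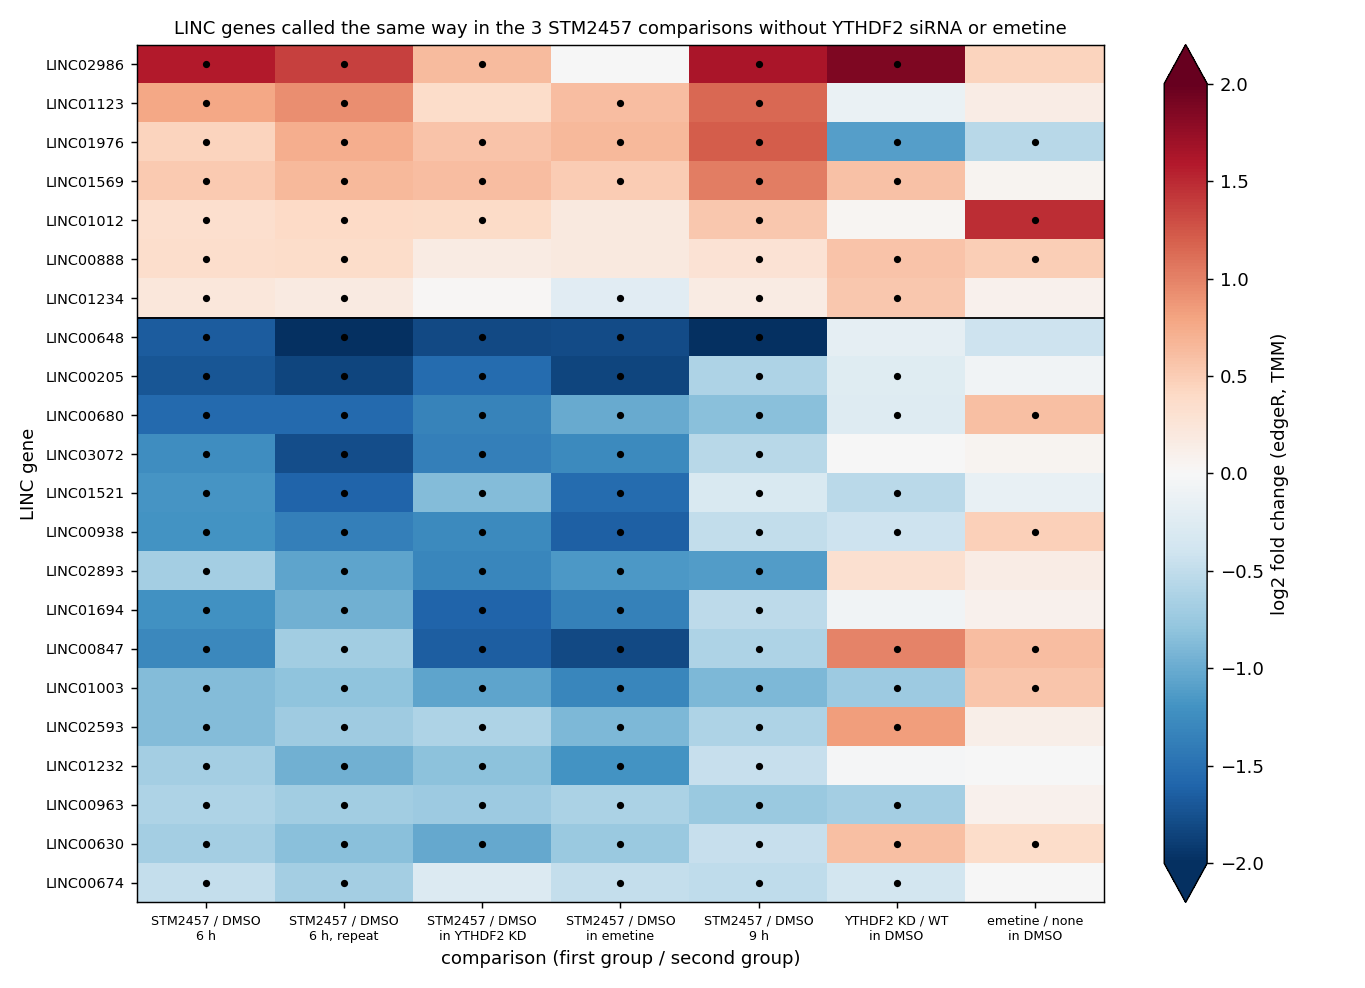
Log2 change (colour, red higher and blue lower in the first group named) of the 22 LINC genes called the same way in the 3 STM2457 comparisons without YTHDF2 siRNA or emetine, over 7 comparisons; dots mark an edgeR adjusted p below 0.05 and "repeat" is the emetine experiment without emetine. The 15 lower genes stay blue in all 5 STM2457 columns, while their colours are mixed in the YTHDF2 KD and emetine columns.

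YTHDF2 siRNA moved LINC genes in both directions. With DMSO, 39 members were lower (33.1%) and 24 higher (20.3%) in KD than in WT cells, against 29.3% lower and 33.1% higher among all genes tested, with a median log2 change of -0.11 for the members and 0.02 for all genes. The counts were 24 lower and 22 higher with ribosomal protein scaling, and 17 lower and 15 higher with ERCC scaling. Those of all genes tested were 3921 lower and 4665 higher, and 2229 lower and 2653 higher, in the same order. This comparison uses the same WT DMSO libraries as STM2457 at 6 h above.

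LINC02166 fell the furthest. It lies on chromosome 16 within the span of CDK10, is transcribed from the minus strand, and was at 0.181, 0.229 and 0.209 CPM in KD, against 0.846, 0.846 and 0.862 CPM in WT cells, a log2 change of -2.02 ± 0.28 (SE, edgeR adjusted p = 3.82e-06). LINC01508 (chr9:90300902-90433505), 176327 bases from its nearest coding gene DIRAS2, was at 0.232, 0.206 and 0.34 CPM in KD, against 0.796, 0.916 and 0.862 CPM in WT cells, a log2 change of -1.73 ± 0.26 (SE, edgeR adjusted p = 1.38e-05). LINC01963 was at 1.70, 1.40 and 1.44 CPM in KD, against 4.40, 5.45 and 4.21 CPM in WT cells, a log2 change of -1.63 ± 0.17 (SE, edgeR adjusted p = 1.72e-07). No KD library reached a WT library for these genes, and LINC02166 and LINC01508 were called in none of the 5 STM2457 comparisons. Falls of LINC01419 (-1.28), LINC00511 (-1.19), LINC01033 (-1.17), LINC01976 (-1.09) and LINC02976 (-1.09) followed, with adjusted p of at most 0.000163. LINC00641, among the most abundant members, was at 19.8, 19.98 and 20.98 CPM in KD, against 38.8, 39.2 and 39.1 CPM in WT cells, a log2 change of -0.95 ± 0.08 (SE, edgeR adjusted p = 1.43e-08).

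LINC02986 also led the rises with YTHDF2 siRNA, at 1.26, 1.28 and 1.25 CPM in KD, against 0.199, 0.564 and 0.263 CPM in WT cells, a log2 change of 1.87 ± 0.28 (SE, edgeR adjusted p = 1.25e-05). LINC02593 (chr1:916865-921016), 2912 bases from SAMD11, was at 13.2, 11.9 and 13.3 CPM in KD, against 6.57, 7.24 and 7.68 CPM in WT cells, a log2 change of 0.84 ± 0.08 (SE, edgeR adjusted p = 6.56e-08). For both genes the KD libraries all lay above the WT libraries. LINC01089, described as a suppressor of metastasis in breast cancer, had 5.27, 5.97 and 6.06 CPM in KD, against 1.99, 2.16 and 2.87 CPM in WT cells, a log2 change of 1.30 ± 0.13 (SE, edgeR adjusted p = 5.21e-08), with exons shared with RHOF on the same strand. LINC01140 (1.04), LINC00847 (1.00), LINC01619 (0.98), LINC01273 (0.97) and LINC02245 (0.80) completed the 8 largest rises. LINC00847 shares exon sequence with HEIH on the other strand.

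The 14 members lower in all STM2457 comparisons did not share 1 direction here. LINC00847, LINC02593 and LINC00630 were higher in KD, LINC00205, LINC00680, LINC00938, LINC01521, LINC01003 and LINC00963 were lower, and the other 5 were not called. The 2 members higher in all STM2457 comparisons moved apart: LINC01569 rose (0.59) and LINC01976 fell (-1.09).

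Within KD cells STM2457 again lowered more members than it raised, 34 (28.8%) against 6 (5.08%), where 15.4% of all genes tested were lower and 15.5% higher. The median log2 change was -0.15 for the members and 0.00 for all genes. The rises numbered 2 without KD DMSO replicate 1 and 3 without KD DMSO replicate 2. With ribosomal protein scaling the counts were 46 lower and 2 higher, and with ERCC scaling 35 lower and 0 higher (0 higher also at an unadjusted p below 0.05). Those of all genes tested were 4129 lower and 708 higher, and 2381 lower and 138 higher, in the same order. LINC01560 fell the furthest (-1.94 ± 0.29, SE, edgeR adjusted p = 3.53e-05), followed by LINC00648 (-1.81), LINC00847 (-1.65), LINC01694 (-1.60), LINC00205 (-1.54), LINC02606 (-1.43), LINC03072 (-1.36) and LINC00680 (-1.34). LINC02606, the member with the fewest reads, missed the threshold without KD DMSO replicate 3 (-1.20, edgeR adjusted p = 0.0912), KD STM2457 replicate 1 (-1.42, 0.0544) or KD STM2457 replicate 3 (-1.19, 0.091).

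LINC00205 was at 9.98, 8.47 and 9.65 CPM with STM2457, against 27.3, 29.5 and 24.7 CPM with DMSO, in KD cells, without overlap. The 6 rises were those of LINC02976 (0.81), LINC02986 (0.63), LINC01569 (0.61), LINC01976 (0.58), LINC01315 (0.51) and LINC01012 (0.39), with adjusted p of at most 0.0274. LINC02986 was at 2.30, 2.08 and 1.51 CPM with STM2457, against 1.26, 1.28 and 1.25 CPM with DMSO, in KD cells. Its call was lost without any of 5 of the 6 libraries (adjusted p = 0.0706 to 0.127), that of LINC01315 without any of 4 (0.0724 to 0.0903), that of LINC01012 without any of 3 (0.067 to 0.141) and that of LINC02976 without KD DMSO replicate 1 (0.0534).

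The STM2457 effect differed between KD and WT cells for 2 members, both more negative in KD, and 0 more positive, against 6.93% and 1.78% of all genes tested (edgeR interaction test; 9 and 6 members at an unadjusted p below 0.05, and 0 in either direction with DESeq2). LINC02609 was at 6.27, 7.04 and 6.14 CPM with STM2457, against 7.51, 7.37 and 6.92 CPM with DMSO, in KD cells, and at 8.67, 7.95 and 9.40 CPM with STM2457, against 7.61, 6.86 and 7.23 CPM with DMSO, in WT cells. The difference of the effects was -0.43 ± 0.12 on the log2 scale (SE, edgeR adjusted p = 0.0348). LINC00630 was at 8.37, 8.21 and 8.61 CPM with STM2457, against 17.2, 16.98 and 17.2 CPM with DMSO, in KD cells, and at 6.92, 7.16 and 7.10 CPM with STM2457, against 11.1, 12.1 and 10.7 CPM with DMSO, in WT cells. Its difference was -0.35 ± 0.10 (SE, edgeR adjusted p = 0.0285). Both were near the threshold: LINC02609 lost the call without any of 9 of the 12 libraries (adjusted p up to 0.104) and LINC00630 without any of 7 (up to 0.104). For LINC02986 the difference was -0.95 ± 0.36 (SE, edgeR adjusted p = 0.128).

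**Figure D4:**
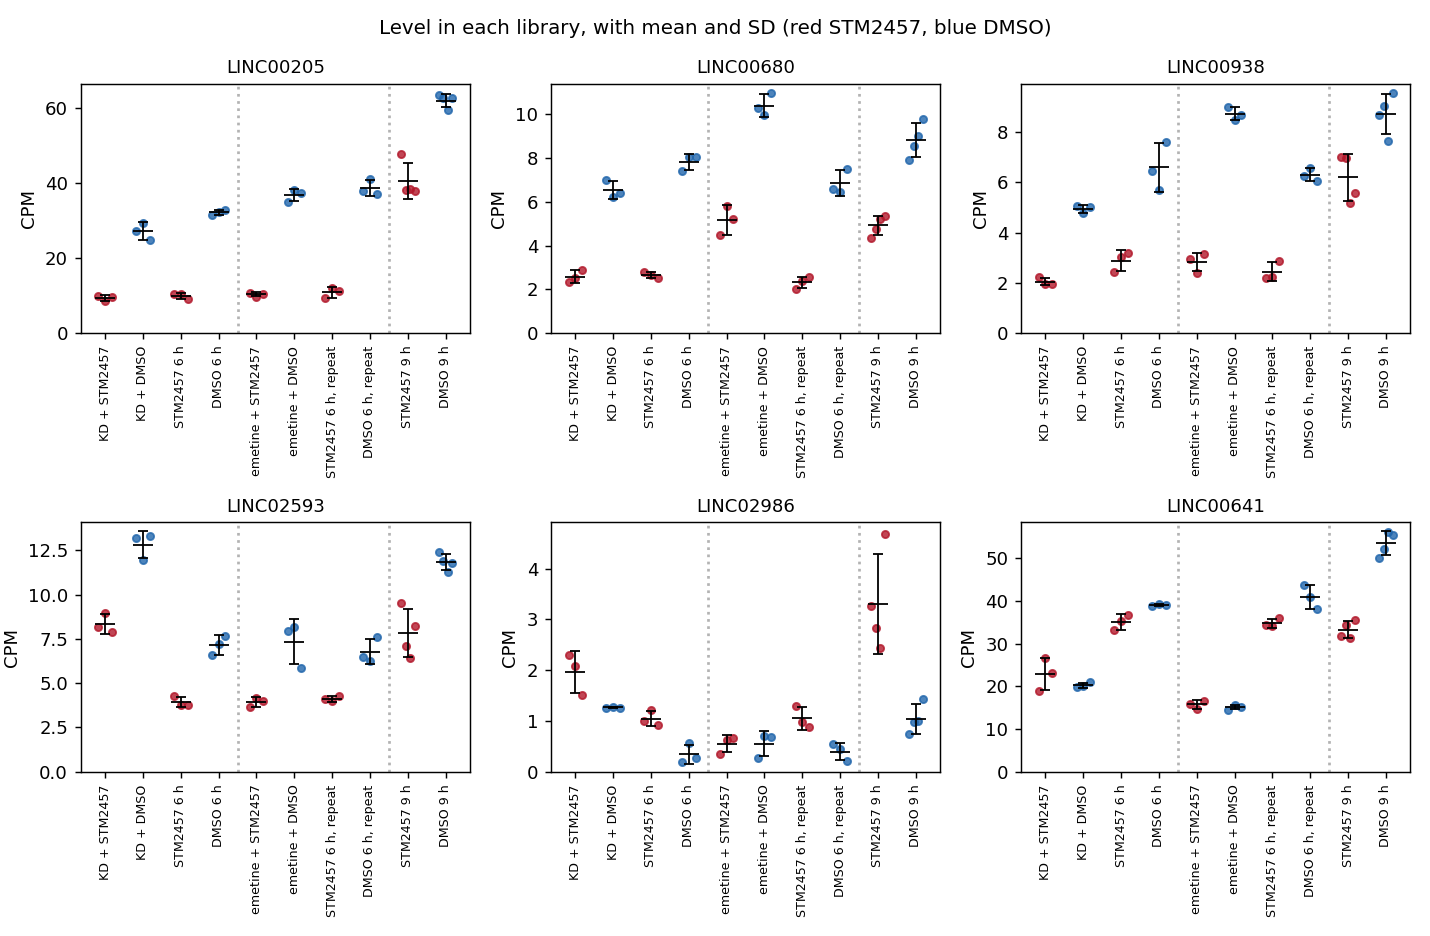
Level in CPM of 6 LINC genes in each library (points; red STM2457, blue DMSO) with group mean and SD (bars), by experiment; dotted lines part the knockdown, emetine and 9 h experiments and "repeat" is the emetine experiment without emetine. LINC00205 lies near 10 CPM in all 4 groups given STM2457 for 6 h, LINC02593 is highest in KD cells with DMSO, and LINC00641 is lowest in the emetine groups.

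With TMM scaling, emetine for 2 h lowered a smaller share of LINC genes than of all genes tested. The share it raised was also below that of all genes. With DMSO, 33 members were higher (28.0%) and 7 lower (5.93%) with emetine than without, against 33.9% higher and 28.3% lower among all genes tested. The median log2 change was 0.10 for the members and 0.04 for all genes. The split rested strongly on the scaling: 80 members were higher and 1 lower with ribosomal protein scaling, and 84 higher and 1 lower with ERCC scaling, which put the median of all genes at 0.47 and 0.52 and that of the members at 0.54 and 0.59. Of the 15817 genes tested, 11473 were higher and 407 lower with ribosomal protein scaling, and 11558 higher and 227 lower with ERCC scaling. The DMSO libraries without emetine are those that STM2457 without emetine was set against above.

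LINC00491 (chr5:102609156-102671559), which lies 82422 bases from PAM and whose transcript holds no GGACT, was at 10.1, 8.57 and 8.40 CPM with emetine, against 3.18, 3.14 and 3.13 CPM without, a log2 change of 1.51 ± 0.12 (SE, edgeR adjusted p = 9.7e-13). LINC01012 (chr6:27694035-27710222), 97222 bases from the histone gene H2BC13, was at 7.61, 6.996 and 7.51 CPM with emetine, against 2.997, 1.91 and 3.01 CPM without, a log2 change of 1.48 ± 0.14 (SE, edgeR adjusted p = 4.24e-11). The groups were well apart for both genes. LINC01881 (1.28), LINC02348 (1.21), LINC00511 (1.177), LINC01140 (1.17), LINC01572 (1.16) and LINC02361 (1.11) followed, with adjusted p of at most 0.0059.

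LINC00641 (chr14:21200079-21206900), a single exon 2236 bases from HNRNPC, fell the furthest with emetine. It was at 14.6, 15.6 and 15.2 CPM with emetine, against 43.8, 40.95 and 38.1 CPM without, a log2 change of -1.44 ± 0.06 (SE, edgeR adjusted p = 6.47e-20), and was the only member still called lower under both other scalings. LINC00997 (-0.71), LINC01976 (-0.56), LINC00294 (-0.51), LINC00470 (-0.39), LINC02609 (-0.29) and LINC02381 (-0.19) were the other 6 lower members, none of them called lower under the other scalings. LINC00470, LINC02609 and LINC02381 had positive changes under both scalings (0.04, 0.15 and 0.25 with ribosomal protein scaling and 0.08, 0.20 and 0.30 with ERCC scaling), and LINC02381 was then called higher (edgeR adjusted p = 0.00017 and 0.00121). LINC00470 also lost the call without any of 4 of the 6 libraries and LINC02609 without any of 3 (adjusted p of at most 0.185 and 0.101).

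Under emetine STM2457 still lowered 39 members (33.1%) and raised 8 (6.78%), where 16.2% of all genes tested were lower and 21.6% higher. The medians were -0.17 for the members and 0.01 for all genes, and without emetine DMSO replicate 2 the rises numbered 4. LINC00205 was at 10.7, 9.71 and 10.4 CPM with STM2457, against 34.95, 38.1 and 37.3 CPM with DMSO, a log2 change of -1.84 ± 0.07 (SE, edgeR adjusted p = 2.71e-20). LINC00847 (-1.80), LINC00648 (-1.79), LINC00938 (-1.63), LINC01560 (-1.60), LINC01521 (-1.54), LINC02606 (-1.49) and LINC00235 (-1.41) followed, with adjusted p of at most 0.000473. The rises were those of LINC01176 (1.30), LINC02976 (0.98), LINC01409 (0.92), LINC01976 (0.65), LINC01311 (0.62), LINC01123 (0.62), LINC01089 (0.51) and LINC01569 (0.51). With 1 library left out, LINC01409 lost the call in 4 of 6 cases (adjusted p up to 0.205), LINC01089 and LINC01569 in 3 each (up to 0.153 and 0.165) and LINC01311 in 2 (up to 0.112), each of them without emetine DMSO replicate 2 among others.

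LINC02986 was not called with STM2457 under emetine, where it was at 0.359, 0.631 and 0.67 CPM with STM2457, against 0.266, 0.711 and 0.676 CPM with DMSO, with overlapping libraries. The difference of its STM2457 effect with and without emetine was -1.37 ± 0.53 (SE, edgeR adjusted p = 0.0737) and missed the threshold. The effect of STM2457 differed with emetine for 5 members, 3 more positive and 2 more negative, against 6.73% and 11% of all genes tested. LINC01234 was at 11.4, 12.2 and 11.3 CPM with STM2457, against 13.4, 13.7 and 13.9 CPM with DMSO, under emetine, and at 14.8, 14.7 and 14.3 CPM with STM2457, against 11.4, 13.3 and 13.99 CPM with DMSO, without it. The difference was -0.41 ± 0.11 (SE, edgeR adjusted p = 0.00596), and the call held without each of the 12 libraries in turn but not with ERCC scaling (-0.37, edgeR adjusted p = 0.168).

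LINC00265 was at 6.54, 7.46 and 6.97 CPM with STM2457, against 7.68, 7.26 and 7.69 CPM with DMSO, under emetine, and at 2.38, 2.29 and 2.51 CPM with STM2457, against 4.01, 4.15 and 3.42 CPM with DMSO, without it. Its groups overlapped under emetine and were apart without it, and the difference was 0.58 ± 0.17 (SE, edgeR adjusted p = 0.0148), a call that held without each of the 12 libraries in turn but not with ERCC scaling (0.63, edgeR adjusted p = 0.0603). For LINC00680 the difference was 0.55 ± 0.17, for LINC00641 0.295 ± 0.09 and for LINC00847 -1.10 ± 0.38 (SE, edgeR adjusted p = 0.0245, 0.0188 and 0.0434). These calls were lost without any of 4, 3 and 9 of the 12 libraries (adjusted p up to 0.101, 0.0706 and 0.136), and with ERCC scaling (0.0696, 0.127 and 0.167).

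Members differed in how often they were called. Over the 7 comparisons of groups, 13 members were called in none, LINC00665 and LINC00632 among them, and LINC00630, LINC00680, LINC00847, LINC00938, LINC01003 and LINC01976 were called in all. By log2 CPM centred on the DMSO mean of each experiment, over the 32 libraries, the pattern most like LINC00680 was that of LINC00938 (Pearson r = 0.882), and the patterns most like LINC00938 were those of LINC01694 (0.937), LINC00205 (0.927) and LINC01719 (0.911). LINC00630 was most like LINC01547 (0.872), LINC00847 (0.841) and LINC02893 (0.839). These values are descriptions over libraries that share treatments and experiments.

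The 14 members lower in all STM2457 comparisons had a higher median length of the longest exon than members not lower, a difference that was not tested. The longest exon of their longest transcript ran from 1264 to 9730 bases with a median of 2424, against a median of 1546 bases for the 60 annotated members not lower in any STM2457 comparison. They held a median of 4 copies of GGACT, against 1, and 12 of the 14 (85.7%) held at least 1, against 47 of 60 (78.3%). Per kb the median was 0.999 copies, against 0.721. All genes tested at 6 h in the knockdown experiment had a median of 3 copies and of 0.917 copies per kb. Of these genes 89.1% held at least 1 copy, and their longest exon had a median of 1812 bases. Over 116 members, the rank correlation of the 6 h log2 change in the knockdown experiment was -0.289 with the longest exon, -0.242 with the number of GGACT copies and -0.123 with copies per kb, given as descriptions across genes. The correlation with the length of the whole transcript was of like size, at -0.271. Over the other 4 STM2457 comparisons the correlation with the longest exon was -0.181 within KD, -0.206 under emetine, -0.237 in the emetine experiment without emetine and -0.221 at 9 h, and that with copies per kb was -0.138, 0.001, -0.153 and -0.067 in the same order. With YTHDF2 siRNA and with emetine the correlations with the longest exon were 0.045 and 0.001.

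**Figure D5:**
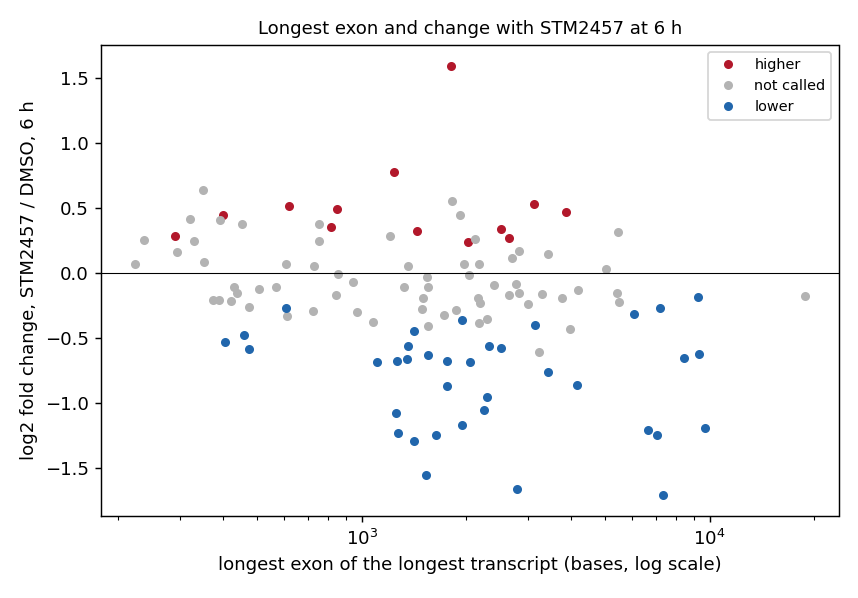
Log2 change with STM2457 at 6 h in the knockdown experiment (vertical) against the longest exon of the longest GENCODE 29 transcript (horizontal, log scale) for 116 LINC genes, coloured by call (higher, not called, lower). The deepest falls, those of LINC00205 and LINC00648, have longest exons of 7336 and 2804 bases.

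Of 25 LINC genes listed for having been described in the literature, 15 were members. LINC00205, LINC00963 and LINC01003 were lower in all 5 STM2457 comparisons. LINC00511, described as a growth-promoting RNA in breast cancer, was at 0.697, 0.686 and 0.784 CPM in KD, against 1.87, 1.53 and 1.56 CPM in WT cells (-1.19 ± 0.17, SE, edgeR adjusted p = 5.72e-06), and at 2.40, 2.13 and 3.10 CPM with emetine, against 1.37, 1.05 and 0.935 CPM without (1.177 ± 0.20, SE, edgeR adjusted p = 4.58e-06). It was called in no STM2457 comparison. LINC00467, which is known to encode a micropeptide, fell with STM2457 in 4 comparisons (-0.38, -0.59, -0.26 and -0.23), had -0.24 at 6 h in the knockdown experiment without a call, and was higher in KD than in WT cells (0.40). LINC00888, whose exons hold the small nucleolar RNA gene SNORA63E, rose in 5 comparisons, STM2457 at 6 h in both experiments and at 9 h, YTHDF2 siRNA and emetine, although its change at 6 h in the knockdown experiment was -0.04 with ERCC scaling.

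LINC00339 rose with emetine (0.63) and fell with STM2457 under emetine (-0.39), and it shares exon sequence with other genes on either strand, CDC42-AS1 among them. LINC00662 fell with STM2457 with and without emetine in the emetine experiment (-0.27 and -0.27) and was lower in KD than in WT cells (-0.29). LINC00472 rose at 9 h (0.27) and was lower in KD than in WT cells (-0.35), and LINC01116 rose at 9 h (0.49). LINC00665, also known for a micropeptide, and LINC00632, from the locus of the circular RNA CDR1as, were called in no comparison, with log2 changes between -0.40 and 0.53 for LINC00665 and between -0.30 and 0.01 for LINC00632.

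Antisense and divergent noncoding genes with a mean of at least 20 reads also had more falls than rises with STM2457 at 6 h. Of 330 antisense genes (symbols ending in -AS), 127 were lower (38.5%) and 33 higher (10.0%) in the knockdown experiment, with a median log2 change of -0.20. Of 150 divergent transcripts (-DT), 58 were lower (38.7%) and 10 higher (6.67%), with a median of -0.23. At 9 h the antisense genes had 83 lower and 87 higher, and the divergent transcripts 42 lower and 30 higher. With emetine in DMSO, 27.9% of the antisense genes were higher and 5.45% lower. Of the divergent transcripts 24.7% were higher and 3.33% lower, so the small share of falls with emetine was not particular to LINC genes. The difference between these classes and the LINC genes was not tested. Of 18 long noncoding RNAs with other names, 16 were tested, 5 lower (31.2%) and 4 higher (25.0%) at 6 h in the knockdown experiment, where 22.1% of all genes were lower and 22.9% higher. Their median log2 change was -0.04, and 0.07 in the emetine experiment without emetine. Lower were TUG1 (-1.15), NORAD (-1.03), which binds PUMILIO proteins, NEAT1 (-0.66), the scaffold of paraspeckles, CYTOR (-0.62) and CHASERR (-0.52). Higher were LINC-PINT (0.74), KCNQ1OT1 (0.68), EPB41L4A-AS1 (0.54) and DANCR (0.40).

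Genes of 2 decay routes were listed beside the members. Of 21 genes of the nuclear exosome and its adaptors, 8 were higher and 4 lower with STM2457 at 6 h in the knockdown experiment, against 22.9% and 22.1% of all genes. STM2457 for 6 h in the emetine experiment without emetine gave 7 higher and 9 lower, against 26% and 21.9% of all genes. At 9 h 4 were higher and 15 lower, against 32.2% and 32.5% of all genes. ZFC3H1, a component of the adaptor that links the exosome to polyadenylated nuclear RNA, had log2 changes of -0.57 at 6 h in the knockdown experiment and -0.11 at 9 h, PABPN1 had -0.40 and -0.32, and RBM7, of the adaptor for short-lived nuclear transcripts, had 0.59 and 0.34, all past the threshold. Of 12 genes of nonsense-mediated and cytoplasmic 5′ to 3′ decay, 8 were higher (66.7%) and 1 lower (8.33%) with YTHDF2 siRNA, against 33.1% and 29.3% of all genes, and 9 were higher (75.0%) and 1 lower (8.33%) with emetine, against 33.9% and 28.3%. The nonsense-mediated decay factor UPF1 had log2 changes of 0.66 and 0.37, and the exonuclease XRN1 had 0.23 and 0.58, in these comparisons. The decay genes named are examples picked without a rule and do not stand for their lists. The part of the listed genes in the levels of LINC RNAs was not tested.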

How the data were processed

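Polyadenylated RNA of HEK293T cells was sequenced from stranded libraries, per the labels' protocols. The deposited files hold raw read counts per gene, 1 file per library; the submitters' processing notes name alignment with STAR 2.7.3a to GRCh38.p12, counting with featureCounts of Subread 2.0.0, trimming with Trimmomatic and cutadapt (1.18 and 4.0), and SAMtools 1.9 and FastQC 0.11.8. No source used here gives the annotation release or the strand setting. Reads on 92 ERCC spike-in RNAs were present in 24 libraries, and 45 duplicate rows of the pseudoautosomal region on Y, holding 1 read, were left out.

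Symbols were matched to gene IDs, and the members and lists were chosen with earlier results of these data known. Each of the 3 experiments was fitted on its own across all genes with edgeR 4.0.16 in R 4.3.3 (filterByExpr, TMM scaling, quasi-likelihood F test, p-values adjusted by Benjamini-Hochberg across every gene tested); calls were made at an adjusted p below 0.05. Comparisons that use the same DMSO libraries are STM2457 at 6 h and YTHDF2 KD, and emetine and STM2457 without emetine. CPM values use the TMM library sizes. Alternatives were DESeq2 1.42.0, its size factors in edgeR, no filter, a replicate block, scaling to 84 ribosomal protein genes or to ERCC, and each library left out. On simulated counts with 200 changed genes, the fit of STM2457 at 6 h (16662 genes) recovered 78% of genes changed by 0.5 and 88% of those changed by 1 on the log2 scale, with 6.74% of calls false. The 9 h fit recovered 77% and 95% with 4.97% of calls false, and the emetine experiment without emetine 69% and 89% with 8.14%. The changed genes were drawn from all genes tested, so these values do not describe the LINC genes, whose levels are lower. The data held far more called genes, 3814 higher and 3677 lower for STM2457 at 6 h in the knockdown experiment. Recovery and the share of false calls may therefore differ in the data. Genes named are up to 8 called members in each direction per comparison by size of change, up to 5 per interaction, the 8 most abundant, those called alike in all 5 STM2457 comparisons, the listed described genes, and the 3 most like each of 3 members with most calls; 6 members tied with 7 calls each, and the 3 with the most reads were taken. Positions and transcripts are from GENCODE release 29.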

Additional observations from a re-analysis of the deposited data

Results flagged for a closer look

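The effect of STM2457 differed between KD and WT cells by an interaction test for LINC02609 (-0.43 on the log2 scale) and LINC00630 (-0.35). It differed with and without emetine for LINC00265 (0.58), LINC00680 (0.55), LINC00641 (0.295), LINC00847 (-1.10) and LINC01234 (-0.41), and of all these the calls of LINC00265 and LINC01234 held without each library in turn, with edgeR adjusted p = 0.0603 and 0.168 under ERCC scaling, where the other 5 missed the threshold too.

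At 9 h, STM2457 replicate 1 stood apart for LINC01123, at 3.23 CPM where the other 3 libraries had 4.47, 4.64 and 4.66. DMSO replicate 2 stood apart for LINC00648, at 2.74 CPM where the other 3 had 2.21, 2.25 and 2.30. These are 2 of 32 sets tested with Dixon's rule, by which chance marks about 1 in 20. Each set is 1 gene in the 4 libraries of 1 group at 9 h, so the sets share libraries.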

How the results depend on the processing

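The scaling moved the counts of members most. With ribosomal protein scaling the counts were 2 higher and 63 lower for STM2457 at 6 h, 24 lower with YTHDF2 KD, 2 higher with STM2457 in KD, 5 higher in the emetine experiment without emetine, 80 higher and 1 lower with emetine, and 4 higher with STM2457 under emetine. With ERCC scaling they were 1 higher for STM2457 at 6 h, 15 higher and 17 lower with KD, 0 higher with STM2457 in KD (0 at an unadjusted p below 0.05), 5 higher without emetine, 84 higher and 1 lower with emetine, and 5 higher with STM2457 under emetine; DESeq2 also gave 5 there. Counts of all genes tested moved with the scaling too, as given above for most of these comparisons. Under emetine 1660 of all genes were higher with STM2457 with ribosomal protein scaling, and 1351 with ERCC scaling. LINC00888 had -0.038 at 6 h with ERCC scaling. With emetine LINC00470, LINC02609 and LINC02381 had 0.043, 0.151 and 0.248 with ribosomal protein scaling and 0.084, 0.2 and 0.295 with ERCC scaling. On raw library totals the DMSO means at 6 h of LINC00641 and LINC00205 were 40.0 and 33.1 CPM. For these moves the cause was not tested.

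The interaction counts were small. With KD, 0 members were lower with ribosomal protein scaling, ERCC scaling (1 each at an unadjusted p below 0.05) or DESeq2 (5), and without the filter 1 was lower and 2 higher. With emetine, 1 was lower with ribosomal protein scaling, no filter, the replicate block or DESeq2, and ERCC scaling gave 0 in either direction (8 higher and 6 lower at an unadjusted p below 0.05).

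Leaving out each library in turn gave 7 to 13 higher and 31 to 39 lower for STM2457 at 6 h, 33 to 34 and 21 to 27 at 9 h, 22 to 23 and 32 to 37 with KD, 2 to 7 and 28 to 32 with STM2457 in KD, 5 to 8 and 32 to 37 in the emetine experiment without emetine, 28 to 31 and 6 to 10 with emetine, 4 to 8 and 32 to 37 with STM2457 under emetine, 0 to 1 and 0 to 3 for the interaction with KD, and 2 to 4 and 1 to 3 for that with emetine. Of 116 named results, 93 kept the call in each of these fits.

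Deviations of libraries with equal replicate numbers had a median r of 0.0915, -0.017 and -0.03 in the knockdown, 9 h and emetine experiments. For unequal numbers the medians were -0.05, 0.071 and -0.013. In the knockdown experiment r reached 0.583 for equal and 0.458 for unequal numbers. With so few libraries per group, these values cannot exclude that equal numbers belong together. With the replicate block the counts were 13 higher and 37 lower at 6 h, and LINC00847 lost its interaction with emetine (edgeR adjusted p = 0.0518), alone among the 116 named results.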
